A study of Mus musculus with 8 samples.

Results

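Axon guidance ligands and receptors are the cell surface and secreted proteins that steer growing axons. Members were the genes whose mouse symbols name semaphorins of classes 3 to 7, plexins, neuropilins, ephrins, Eph receptors, Slits, Robos, netrins, Unc5 receptors or Dcc. The symbols gave 69 members among the 55573 genes counted, after 3 genes on the strand opposite Plxna4 were left out. No measured value was used to choose them. RNA came from adult mice, from neurons sorted by flow cytometry for GFP as C low-threshold mechanoreceptors (C-LTMRs), which are unmyelinated touch neurons of the dorsal root ganglia. The 4 groups were males without Bhlha9 (male KO), male wild type (male WT), females without Bhlha9 (female KO) and female wild type (female WT). Each group had 2 libraries, which the submitters call biological replicates. Bhlha9 encodes a basic helix-loop-helix transcription factor, and the study's title concerns temperature choice and formalin pain in the 2 sexes. Strain, age beyond adulthood, the driver of GFP, any pooling of animals and any sequencing batch were not given in the sources used here.

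The ephrin, Slit, netrin and semaphorin systems make up most of this gene set. Ephrins of the A type are tethered by a lipid anchor and bind mainly EphA receptors, while B-type ephrins cross the membrane and bind mainly EphB receptors. Slits are secreted repellents read by Robos, and netrins are secreted cues read by Dcc, which can attract, and by Unc5 receptors, which repel. Semaphorins are secreted in class 3 and bound to the membrane in classes 4 to 7. Class 3 members act largely through neuropilins paired with A-type plexins, class 4 members often through B-type plexins, and Sema7a through Plxnc1. In adult sensory neurons several of these proteins remain present and have been linked to the maintenance of terminals and to growth after injury.

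The libraries held between 50919885 and 71956309 counts assigned to genes. Levels are in CPM, the counts scaled to a common library size. The 3 counts that a count of 0 allows stood for 0.0417 to 0.0589 CPM. Bhlha9 was at 0.156 and 0.277 CPM in male KO libraries, against 151 and 161 CPM in male WT libraries. In females it was at 0.47 and 0.253 CPM in KO libraries, against 140 and 127 CPM in WT libraries. Th, a defining C-LTMR marker, lay between 2970 and 5360 CPM in all 8 libraries, and the T cell marker Cd3e was at 0 in all of them. The list of 10 immune markers, Cd3e among them, summed to 11.8 to 26.5 CPM, with Csf1r at 11.7 to 25.4 CPM. Male KO replicate 1 stood apart in most markers of myelinated afferents, though not in Ntrk2 and Ntrk3. Its Nefh level was 1550 CPM, against at most 296 CPM in the other 7 libraries. RNA was taken from bulk sorted cells, so fewer cells of a type and less RNA per cell cannot be told apart.

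A few members held most of the set's summed level in C-LTMRs. Of 69 members, 28 reached 1 CPM in all 8 libraries, 20 reached 5 CPM in all 8, and 13 stayed under 1 CPM in every library. Those 13 were Epha1, Epha2, Epha3, Epha10, Ephb4, Efna4, Efnb3, Sema3a, Sema6b, Slit3, Ntn1, Unc5d and Dcc. The filter on low counts kept 56 of the 69 members, of which 28, or 50%, reached 1 CPM in every library, beside 58.4% of all 22013 genes kept. Over the 55573 genes counted the share was 23.1%, beside 40.6% of the 69 members. Levels between genes were compared as CPM per kilobase of exon, summed or averaged over libraries. On that scale the 5 highest members held 52.9% of the summed level of all 69, the 10 highest 75.4% and the 20 highest 93.1%. Membrane-bound ligands held 47.3%, receptors 36.5% and secreted ligands 16.2%.

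**Figure D1:**
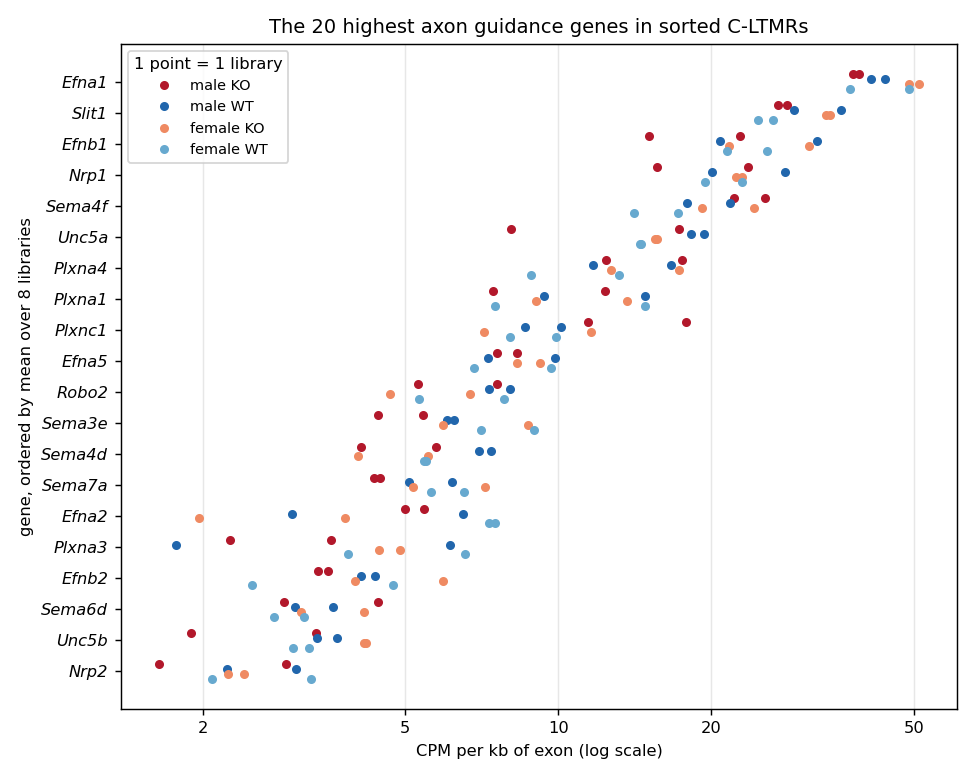
Levels of the 20 highest members in CPM per kilobase of exon, on a log axis, with 1 point for each of the 8 libraries and colours for the 4 groups. Efna1 sits above all others, between 37.4 and 51.3, and the libraries of every other pair of neighbours overlap.

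Efna1, an A-type ephrin, was the highest member at 43.6 ± 5.53 CPM per kilobase (SD over 8 libraries), the 92.0th percentile of tested genes. Its libraries ranged from 37.4 to 51.3 CPM per kilobase and lay above those of Slit1, the second in order, which ranged from 24.7 to 35.9. Of the 19 pairs of neighbours among the 20 highest members, this was the 1 pair whose libraries did not overlap. Slit1, a secreted Robo ligand, averaged 29.9 ± 4.14 CPM per kilobase, and Efnb1, a B-type ephrin, 23.9 ± 5.66 CPM per kilobase. Nrp1, a co-receptor for class 3 semaphorins and for VEGF, averaged 21.9 ± 3.60 CPM per kilobase, and Sema4f, a membrane-bound semaphorin, averaged 20.2 ± 3.83. The repulsive netrin receptor Unc5a averaged 15.4 ± 3.43 CPM per kilobase. Plexins followed, namely the A-type Plxna4 at 13.8 ± 3.08, Plxna1 at 11.1 ± 3.14, and the Sema7a receptor Plxnc1 at 10.6 ± 3.32 CPM per kilobase. The next 11 in order were Efna5, Robo2, Sema3e, Sema4d, Sema7a, Efna2, Plxna3, Efnb2, Sema6d, Unc5b and Nrp2, with means between 8.38 and 2.48 CPM per kilobase.

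Ligands and their main receptors were at unlike levels in several systems. A-type ephrins summed to 52.1 to 63.4 CPM per kilobase over the 8 libraries, while the 9 EphA receptors together summed to 0.317 to 1.31. The highest EphA receptor, Epha7, averaged 0.262 CPM per kilobase, and Epha5, Epha6 and Epha8 were each at 0 or under 1 CPM in at least 1 library. B-type ephrins summed to 18.5 to 37.0 CPM per kilobase, against 0.575 to 4.05 for the EphB receptors, of which the kinase-dead Ephb6 was the highest. For both ephrin types the lowest ligand sum in any library lay above the highest receptor sum. The netrin system ran the other way, with Unc5 receptors at 11.6 to 22.7 CPM per kilobase and netrins at 0.578 to 4.05. Ntn1, the best known netrin, stayed under 1 CPM in all 8 libraries, and Ntn3 was the highest netrin at 0.859 CPM per kilobase. Dcc was at 0 in 7 libraries and at 0.901 CPM in male KO replicate 1.

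Slits, nearly all Slit1, summed to 24.7 to 35.9 CPM per kilobase, and Robos, mainly Robo2, to 5.34 to 8.49. In the class 3 semaphorin system the co-receptors were the higher side, with neuropilins at 17.3 to 30.2 and A-type plexins at 24.3 to 38.9 CPM per kilobase, against 8.37 to 16.9 for the secreted ligands. Sema3e, which can bind Plxnd1 directly, was the highest class 3 ligand at 6.60 CPM per kilobase, while Plxnd1 averaged 0.615. Sema3a, a classic repellent of sensory axons, had counts in male KO replicate 1 and in no other library, at 0.0173 CPM there. Class 4 semaphorins summed to 22.5 to 35.2 CPM per kilobase and B-type plexins, led by Plxnb2, to 1.01 to 1.90. Sema7a, at 4.35 to 7.18 CPM per kilobase, and its receptor Plxnc1, at 7.15 to 17.8, were both present in every library. Class 5 was the lowest semaphorin class, with Sema5a at a mean of 0.154 CPM per kilobase, and Sema6d led class 6 at 3.39. Ephb4, a receptor known from veins, had 0 counts in all 8 libraries, a limit of 0.0589 CPM in the shallowest.

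**Figure D2:**
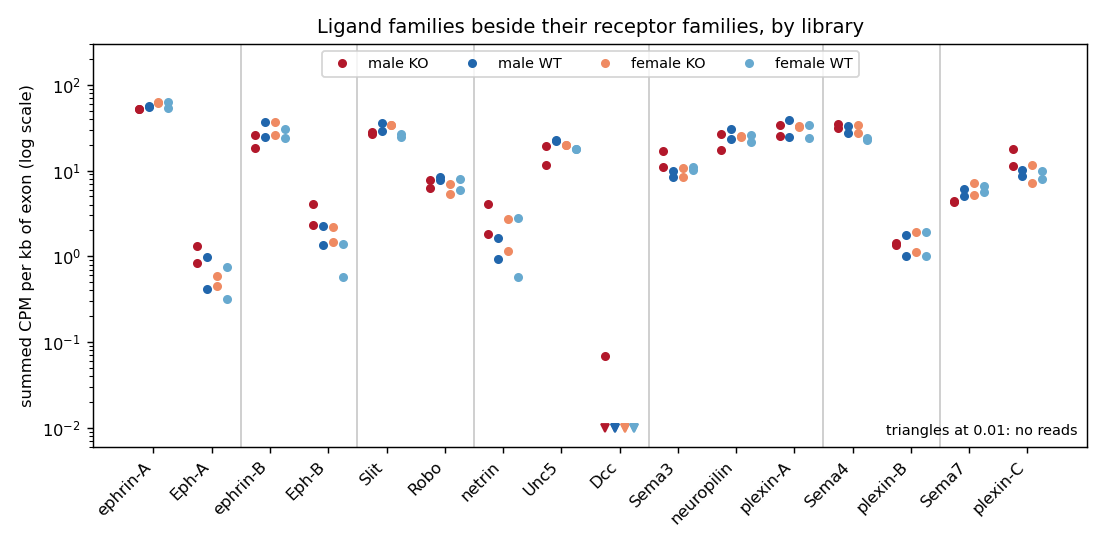
Summed level of each ligand family (left in each panel) and its main receptor families in CPM per kilobase of exon, on a log axis, with 1 point per library and triangles for a sum of 0. Ephrin-A sums of 52.1 to 63.4 sit above EphA sums of 0.317 to 1.31, while Unc5 sums of 11.6 to 22.7 sit above netrin sums of 0.578 to 4.05.

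Variation between libraries was moderate among high members and larger among low ones. Among the 20 members at 5 CPM or more in all libraries, the coefficient of variation of CPM over the 8 libraries ran from 12.7% for Efna1 to 40.3% for Plxna3. Its median was 21.9%, beside 22.0% for the 9806 tested genes at 5 CPM or more in all libraries. By contrast, 31 of the 69 members had 0 counts in at least 1 library.

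Loss of Bhlha9 was compared with wild type in each sex, over both sexes, and between the sexes. No member passed at an adjusted p below 0.05 in any of the 4 comparisons with edgeR's quasi-likelihood test. The share of all tested genes that passed was 0.00454% in males, in females and over both sexes, where the 1 gene was Bhlha9 itself, and 0.0% for the difference between the sexes. At an unadjusted edgeR p below 0.05 there were 5 members in males, 5 in females, 4 over both sexes and 8 for the difference. They were Sema3b, Sema3f, Plxnd1, Epha5 and Epha8 in males, Slit1, Efna2, Ephb6, Ntn3 and Sema6a in females, and Sema4f, Ephb6, Plxnd1 and Epha4 over both sexes. The matching shares of all tested genes were 3.5%, 3.81%, 3.56% and 4.73%. DESeq2 passed 1 member in males (Ephb1), 2 in females (Ntn3 and Sema3d), 0 over both sexes and 3 for the difference (Sema3f, Sema3d and Ephb1). Its shares of all tested genes were 1.06%, 1.13%, 0.76% and 1.28%. Differences of members named from here on are values of these libraries, many given with their standard errors, and none passed edgeR's test across all genes. Calls by DESeq2 or in the authors' tables are named as such. In simulated data for the male comparison, edgeR recovered 1 of 50 genes changed 2-fold and 17 of 50 changed 4-fold. It recovered 26 of 50 changed 8-fold and 21 of 50 changed 16-fold, so large changes could be missed too.

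Sema4f was the 1 member with a mean of at least 5 CPM whose KO libraries lay above the WT libraries in each sex. It was at 117 and 135 CPM in male KO libraries, against 94.7 and 115 CPM in male WT libraries. In females it was at 101 and 129 CPM in KO libraries, against 74.6 and 91.2 CPM in WT libraries. The groups did not overlap within a sex, although female KO replicate 1 lay below male WT replicate 2. The log2 fold change of KO over WT was 0.26 ± 0.21 in males and 0.47 ± 0.21 in females (SE), and 0.37 ± 0.14 over both sexes (adjusted p = 1, edgeR). In males it was 0.14 without KO replicate 2 and 0.12 without WT replicate 1, and in females 0.29 without KO replicate 2. All 4 KO libraries lay above all 4 WT libraries for 0 members and below for 0, beside 0.936% and 0.895% of all tested genes. Across all tested genes, 3.92% showed no overlap in the same direction in both sexes. Among the 56 tested members the number was 4, or 7.14%, the others being Ephb6 and Efna3, with KO libraries above, and Ephb2, with KO libraries below. Ephb6, Ephb2 and Efna3 are low receptors and a low ephrin, named after their values were seen. The filter can keep low genes through a single high group, so the 7.14% describes the genes kept. Ephb6 was at 10.7 and 8.20 CPM in male KO libraries, against 3.87 and 5.23 CPM in male WT libraries. Female KO libraries had 5.11 and 2.94 CPM of Ephb6, against 0.141 and 1.17 CPM in female WT libraries.

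Bhlha9 belongs to a family whose members bind the E-box, CANNTG, so the 250 bases upstream of the annotated start are shown for Sema4f and for both Unc5 receptors described next. Capitals mark each CANNTG, a pattern that reads the same on both strands, and the sequences are from RefSeq for GRCm38.p6, given 5′ to 3′ on the gene's strand. The Sema4f window (chr6:82939770-82940019, minus strand) holds 3 matches. The windows of Unc5a (chr13:54949161-54949410, plus strand) and Unc5b (chr10:60831582-60831831, minus strand) hold 0.
Sema4f: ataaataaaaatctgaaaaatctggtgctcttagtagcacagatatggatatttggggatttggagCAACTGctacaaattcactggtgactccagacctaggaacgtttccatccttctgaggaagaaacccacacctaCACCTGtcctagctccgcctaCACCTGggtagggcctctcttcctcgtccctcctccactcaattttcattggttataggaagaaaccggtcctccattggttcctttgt
Unc5a: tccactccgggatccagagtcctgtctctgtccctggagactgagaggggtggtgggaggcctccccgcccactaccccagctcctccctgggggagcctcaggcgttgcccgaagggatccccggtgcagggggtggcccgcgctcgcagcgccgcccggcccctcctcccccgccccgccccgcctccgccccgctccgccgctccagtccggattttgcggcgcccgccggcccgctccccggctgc
Unc5b: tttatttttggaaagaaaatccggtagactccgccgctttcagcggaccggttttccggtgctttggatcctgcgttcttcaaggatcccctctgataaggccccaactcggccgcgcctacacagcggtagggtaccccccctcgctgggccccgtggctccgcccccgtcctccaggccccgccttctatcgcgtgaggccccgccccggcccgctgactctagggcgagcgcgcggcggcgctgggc
The table held windows for 59 of the 69 members, of which 28, or 47.5%, had at least 1 match, beside 66.2% of all 32851 windows. These sets are unlike, since each member gave 1 window, that nearest its annotated start, while the 32851 include several windows for some genes. The window of Efna1 also held 0 matches, and Slit1 had no window. Member windows were richer in G and C, with a median of 64.8% beside 52.4%, and the Sema4f window had 46%, against 76.8% for Unc5a and 66.8% for Unc5b. A match describes the letters of the window and not binding.

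In males, the better expressed members lay mostly lower in KO than in WT, by small amounts. Of the 27 members with a mean of at least 5 CPM, 19 had a negative log2 fold change and the median was -0.25, beside a median of 0.00 and 49.9% negative over the 11857 tested genes at that level. KO libraries lay below WT libraries for 8 of the 27 and above for 3, or 29.6% and 11.1%, beside 15.1% and 13.3% of all tested genes at that level. The summed level of 10 C-LTMR markers was also lower in male KO libraries, at 5421 and 7664 CPM against 8365 and 8355 CPM in male WT libraries. Of the 10 markers, 6 lay below and 0 above, beside the same 15.1% and 13.3% of tested genes. The part of that marker sum in the members' values was not tested. Without male KO replicate 1 the members' median was -0.17, with 20 of 27 negative.

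Among the ligands, Slit1 was at 167 and 160 CPM in male KO libraries, against 172 and 213 CPM in male WT libraries (log2 fold change -0.24 ± 0.16). Efna1 was at 69.5 and 71.3 CPM in male KO libraries, against 80.3 and 75.5 CPM in male WT libraries (-0.15 ± 0.19, log2). Both genes had all KO libraries below all WT libraries by narrow gaps. Slit1 stood at -0.11 without male WT replicate 2 and -0.38 without male WT replicate 1, and Efna1 at -0.22 without male WT replicate 2 (log2). Sema4d, which signals through Plxnb1, had 31.4 and 44.1 CPM in male KO libraries, against 56.6 and 53.5 CPM in male WT libraries (-0.54 ± 0.26, log2). Sema3e had 41.0 and 50.2 CPM in male KO libraries, against 56.3 and 58.1 CPM in male WT libraries (-0.32 ± 0.25, log2). For these semaphorins, too, the KO and WT libraries did not overlap. Without male KO replicate 1 the values were -0.32 for Sema4d and -0.19 for Sema3e, and without male KO replicate 2 they were -0.83 and -0.50. Sema7a and Efnb2 showed the same order, with log2 fold changes of -0.35 ± 0.29 and -0.29 ± 0.36.

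Among the members with a mean of at least 5 CPM, the receptors whose KO and WT libraries did not overlap in males were Unc5a, Unc5b and Plxnc1. Unc5a was at 33.6 and 71.9 CPM in male KO libraries, against 76.1 and 80.5 CPM in male WT libraries (log2 fold change -0.57 ± 0.34). Most of that difference came from male KO replicate 1, since without it the log2 fold change was -0.12, and without male KO replicate 2 it was -1.24. Unc5b was at 20.9 and 11.9 CPM in male KO libraries, against 23.0 and 21.0 CPM in male WT libraries (-0.42 ± 0.32, log2). Here the low library was male KO replicate 2, and without it the value was -0.09, against -0.89 without male KO replicate 1. Plxnc1, the Sema7a receptor, went the other way, at 95.5 and 149 CPM in male KO libraries, against 84.7 and 72.0 CPM in male WT libraries (0.64 ± 0.32, log2). Male KO replicate 2 was the high library for Plxnc1, and without it the value was 0.26.

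The class 3 semaphorins Sema3b and Sema3f lie 72.3 kb apart on chromosome 9 of GRCm38, Sema3b at chr9:107597674-107609229 and Sema3f at chr9:107681500-107710475, both on the minus strand. Sema3b was at 41.8 and 12.9 CPM in male KO libraries, against 6.44 and 2.77 CPM in male WT libraries. Sema3f, a ligand of Nrp2, was at 5.72 and 4.25 CPM in male KO libraries, against 0.571 and 0.314 CPM in male WT libraries. Male KO libraries were higher than male WT libraries for both genes, with log2 fold changes of 2.57 ± 1.05 and 3.49 ± 1.39 (adjusted p = 1 for both, edgeR). Without male KO replicate 1, where Sema3b was highest, its log2 fold change was 1.48. Both are in the authors' deposited table for males, which lists 150 genes, 140 of them higher in KO, with log2 fold changes of 1.34 for Sema3b (adjusted p = 0.0389) and 1.45 for Sema3f (adjusted p = 0.0163). That table gives Bhlha9 a value of -7.40, so its sign runs as KO over WT. DESeq2 1.42.0, run here on the deposited counts, passed neither gene in males. Its adjusted p was 0.263 for Sema3b and 0.179 for Sema3f, with log2 fold changes of 2.57 and 3.49. The authors' smaller values come from another version and fit, so their sizes are not directly comparable with these. The authors' deposited table for females lists 13 genes and 0 members. In females Sema3b was at 4.93 and 7.58 CPM in KO libraries, against 0.935 and 7.52 CPM in WT libraries. Female KO libraries had 0.391 and 0.0140 CPM of Sema3f, against 2.15 and 1.54 CPM in female WT libraries.

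Several marker lists of other cells moved in the same libraries. Of all tested genes, 14.5% had both KO libraries above both WT libraries in males and 14.5% had both below. In females those shares were 14.2% and 15.1%. Peptidergic markers summed to 1203 and 1747 CPM in male KO libraries, against 330 and 364 CPM in male WT libraries, and 4 of 8 lay above with 0 below. In females that sum was 1154 and 236 CPM in KO libraries, against 794 and 1537 CPM in WT libraries, and 6 of 8 lay below. Vascular and fibroblast markers summed to 79.3 and 24.4 CPM in male KO libraries, against 16.7 and 3.55 CPM in male WT libraries. Their sum in females was 6.73 and 11.6 CPM in KO libraries, against 34.5 and 60.4 CPM in WT libraries. Within that list the endothelial markers Kdr, Cdh5 and Pecam1 were at or near 0 in most libraries. Myelinated afferent markers summed to 2111 and 495 CPM in male KO libraries, against 377 and 242 CPM in male WT libraries, with 3 of 7 tested above and 0 below. Their female sums overlapped, at 454 and 284 CPM in KO and 334 and 279 CPM in WT libraries. Nonpeptidergic and pruriceptor markers summed to 84.6 and 313 CPM in male KO libraries, against 59.2 and 75.5 CPM in male WT libraries, with 2 of 4 tested above and 0 below. In females they summed to 115 and 46.6 CPM in KO and 97.7 and 48.4 CPM in WT libraries, which overlapped. Glial markers overlapped in sum, at 5579 and 5745 CPM in male KO and 5672 and 3642 CPM in male WT libraries, though 7 of 10 lay above. The part of these markers in the values of Sema3b, Sema3f and the other low members was not tested.

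Low members formed a second pattern in males. Of the 29 tested members with a mean under 5 CPM, 14 had both male KO libraries above both male WT libraries and 2 had both below, or 48.3% and 6.9%, beside 15.9% and 13.9% of all tested genes under 5 CPM. A low gene is kept by the filter if it is high in a single group, so these shares describe the 29 genes kept and not the whole gene set. Their median log2 fold change was 2.17 in males. The 5 genes at 0 in a whole male group had fitted values of 7.71 or more. Setting them to their bounds left the median at 2.17. A median stays the same wherever such genes remain above it, so this check says little. Without male KO replicate 1 the median was 0.85. Of the 14 genes, 6 were highest of all 8 libraries in male KO replicate 1, 4 in male KO replicate 2, 3 in female KO replicate 2 and 1 in female WT replicate 2. The number of members at 1 CPM or more was 48 and 44 in male KO libraries, against 36 and 38 in male WT libraries. It was 37 and 39 in female KO libraries, against 37 and 41 in female WT libraries. Over all genes, those with any count numbered 23926 and 22869 in male KO libraries. Male WT libraries had 22521 and 25131, so these overlapped. All genes at 1 CPM or more were not counted per library.

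**Figure D3:**
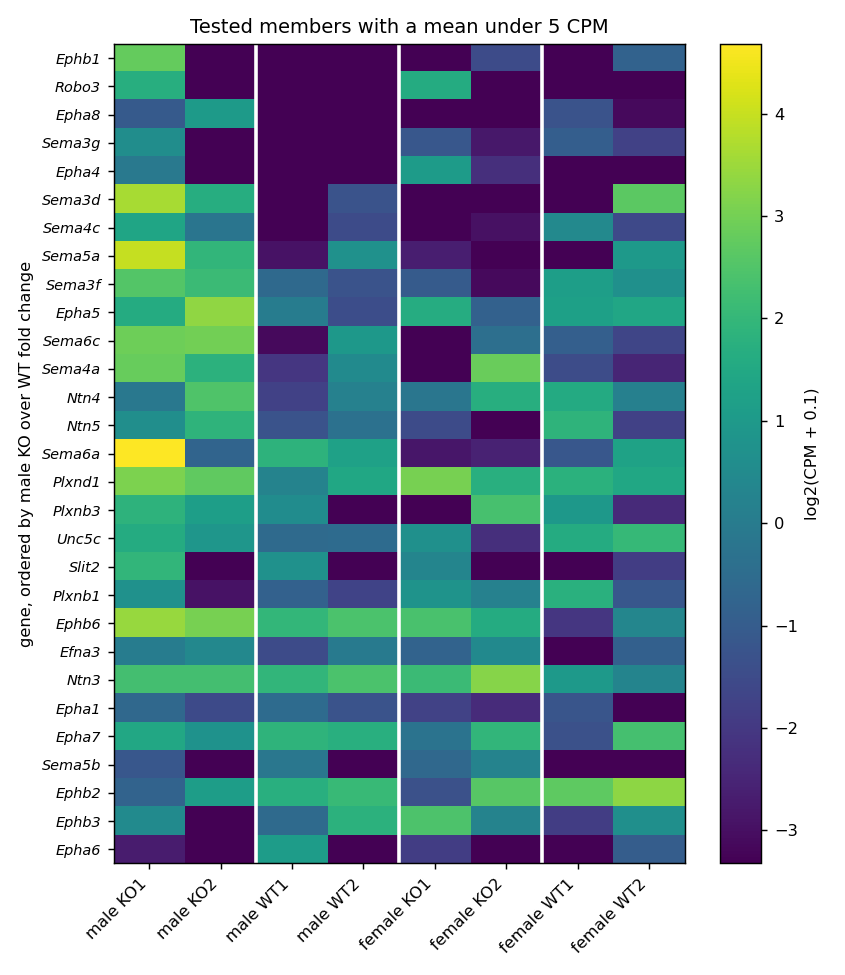
Levels of the 29 tested members with a mean under 5 CPM, as log2(CPM + 0.1), with libraries in columns and genes ordered by the male log2 fold change of KO over WT. Dark cells are at or near 0 counts. The ordering itself places genes that are brighter in the male KO columns in the upper rows.

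Examples from that group, chosen after their values were seen, show its spread. Plxnd1, a receptor for Sema3e, was at 8.43 and 6.47 CPM in male KO libraries, against 1.09 and 2.59 CPM in male WT libraries (log2 fold change 2.01 ± 0.69, edgeR adjusted p = 1). In females Plxnd1 was at 8.06 and 3.23 CPM in KO libraries, against 3.39 and 2.64 CPM in WT libraries, and the groups overlapped. Epha5, a receptor for A-type ephrins, was at 2.94 and 10.1 CPM in male KO libraries, against 0.920 and 0.267 CPM in male WT libraries (3.46 ± 1.22, log2). Ephb1, the member that DESeq2 passed in males at an adjusted p of 3.89e-06, was at 6.79 and 0 CPM in male KO libraries and at 0 CPM in both male WT libraries. That call rests on 1 library.

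In females, 19 of the 27 members with a mean of at least 5 CPM had a positive log2 fold change, with a median of 0.08, beside 49.3% positive and a median of -0.01 over all tested genes at that level. KO libraries lay above WT libraries for 5 of the 27 and below for 1, or 18.5% and 3.7%, beside 14.5% and 16.2% of all tested genes at that level. C-LTMR markers summed to 7348 and 9345 CPM in female KO libraries, against 8307 and 7071 CPM in female WT libraries, and 9 of the 10 had a positive log2 fold change. Those sums overlapped, and their part in the members' values was not tested. Slit1 was at 202 and 199 CPM in female KO libraries, against 146 and 156 CPM in female WT libraries (log2 fold change 0.41 ± 0.16, edgeR adjusted p = 1). Its female KO libraries both lay clear of the WT libraries, and leaving out any 1 library kept the value between 0.36 and 0.46. Efna1 was at 93.9 and 89.7 CPM in female KO libraries, against 68.5 and 89.4 CPM in female WT libraries (0.22 ± 0.19, log2). The lower KO library exceeded the higher WT library by far less than the gap between the WT libraries, and the value was 0.04 without female WT replicate 1 and 0.42 without female WT replicate 2.

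Unc5a was at 64.5 and 65.1 CPM in female KO libraries, against 60.6 and 60.4 CPM in female WT libraries (log2 fold change 0.10 ± 0.34). Replicates of Unc5a lay close together in both female groups, unlike in male KO. Unc5b was at 26.2 and 26.0 CPM in female KO libraries, against 20.3 and 18.9 CPM in female WT libraries (0.42 ± 0.32, log2). The 1 better expressed member that lay below in females was Efna2, an A-type ephrin, at 4.19 and 8.10 CPM in KO libraries against 15.6 and 15.98 CPM in WT libraries (-1.36 ± 0.50, log2, edgeR adjusted p = 1). Male libraries of Efna2 overlapped, at 11.6 and 10.7 CPM in KO and 6.39 and 13.9 CPM in WT. Efna1, Efna2 and Efna5 thus did not share 1 order in females, since Efna5 overlapped at 37.2 and 33.4 CPM in KO and 39.04 and 27.6 CPM in WT libraries. Ntn3, which DESeq2 passed in females (log2 fold change 2.19, adjusted p = 0.0377), was at 4.25 and 9.20 CPM in female KO libraries, against 1.89 and 1.11 CPM in female WT libraries. Its male libraries overlapped, at 4.82 and 4.82 CPM in KO and 3.76 and 5.28 CPM in WT. With edgeR, Ntn3 had an adjusted p of 1 in females.

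**Figure D4:**
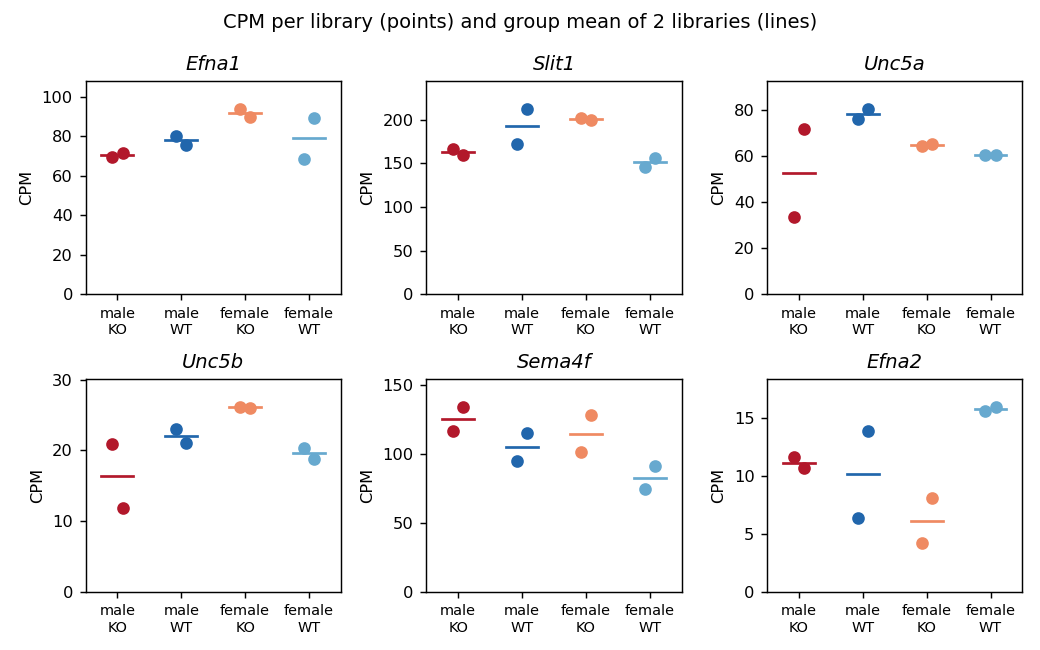
CPM per library (points) and mean of the 2 libraries of each group (lines) for Efna1, Slit1, Unc5a, Unc5b, Sema4f and Efna2. Efna1, Slit1, Unc5a and Unc5b have both KO libraries below WT in males and above WT in females, and Sema4f has them above in both sexes.

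The effect of genotype was then compared between the sexes, as the male minus the female log2 fold change. Of the 27 better expressed members, 23 had a negative difference, with a median of -0.32, beside 49.1% negative and a median of 0.01 over the 11857 tested genes at that level. Plxnc1, Efna2, Sema3b and Plxna2 were the 4 exceptions. Leaving out 1 library gave medians between -0.42 and -0.22, with 19 of 27 negative without male KO replicate 1. Members whose libraries did not overlap and moved in opposite directions numbered 8 of 56, or 14.3%, beside 4.77% of all tested genes. They were Efna1, Slit1, Unc5a and Unc5b, lower in male KO and higher in female KO, and Sema3f, Unc5c, Sema4c and Epha8, higher in male KO and lower in female KO. The last 4 had means under 5 CPM, and the filter can keep such genes through a single high group. The 14.3% thus describes the genes kept and not the whole gene set. Epha8 had 0 counts in both male WT and both female KO libraries.

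Slit1 had a difference of -0.65 ± 0.23 (log2, edgeR adjusted p = 0.98), the smallest standard error among those genes. Sema3f had a difference of 6.68 ± 1.96 (edgeR adjusted p = 0.98), and DESeq2 passed it at 6.70 (adjusted p = 0.0133). Its female KO libraries were at 0.391 and 0.0140 CPM, so the size of that difference rests on counts near 0, and it was 10.33 without female KO replicate 1. Unc5a and Unc5b differed by -0.67 ± 0.48 and -0.84 ± 0.46, while Unc5c, the third Unc5 receptor tested, differed by 4.07 ± 1.71 (log2). Unc5c was at 2.91 and 1.76 CPM in male KO libraries, against 0.587 and 0.597 CPM in male WT libraries. Female KO libraries had 1.51 and 0.112 CPM of Unc5c, against 2.91 and 4.02 CPM in female WT libraries. No difference between the sexes passed with edgeR for any member, the adjusted p lying between 0.98 and 1.

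**Figure D5:**
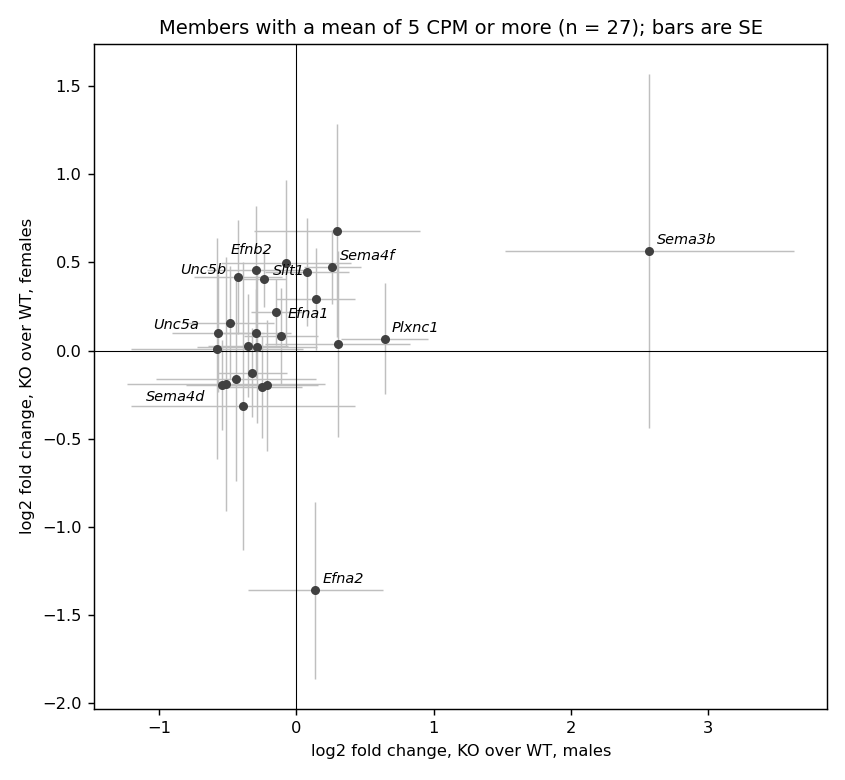
Log2 fold change of KO over WT in males (horizontal axis) and in females (vertical axis) for the 27 members with a mean of at least 5 CPM, with bars of 1 SE. Of these, 19 lie left of 0 and 19 lie above 0, and Sema3b and Efna2 lie far from the rest.

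Genes that act downstream of these receptors or beside them formed a list of 84, of which 81 were tested. With edgeR 0 passed in each comparison. At an unadjusted edgeR p below 0.05 there were 5 in males, 7 in females, 5 over both sexes and 8 for the difference. Shares of all tested genes at that p were 3.5%, 3.81%, 3.56% and 4.73%. DESeq2 passed 2, 3, 3 and 3 in that order, beside 1.06%, 1.13%, 0.76% and 1.28% of all genes it tested. The DESeq2 calls were Mical1 and Trim67 in males, Dscam, Itga1 and Ngef in females, Pak1, Pak2 and Dscam over both sexes, and Itga1, Ngef and Rnd1 for the difference. Ngef was at 0 CPM in both female KO libraries and at 0 and 5.19 CPM in female WT libraries, so its call in females rests on 1 library. In males 25 of the 81 had both KO libraries above both WT libraries and 5 had both below, or 30.9% and 6.17%, beside 14.5% and 14.5% of all tested genes. In females the numbers were 12 and 11, or 14.8% and 13.6%, beside 14.2% and 15.1%. Pak1, Pak2, Ptk2 and Dscam lay above in both sexes, which makes 4 of 81, or 4.94%, with no overlap in the same direction, beside 3.92% of all tested genes.

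Pak1, a kinase activated by Rac1 and Cdc42, was at 56.0 and 56.8 CPM in male KO libraries, against 29.7 and 37.6 CPM in male WT libraries. In females Pak1 was at 24.9 and 38.8 CPM in KO libraries, against 18.4 and 17.9 CPM in WT libraries. Its log2 fold change over both sexes was 0.78 ± 0.18 with edgeR (adjusted p = 1), and DESeq2 passed it at an adjusted p of 0.00793. Pak2, a close relative, had all 4 KO libraries, from 15.9 to 17.5 CPM, above all 4 WT libraries, from 9.91 to 12.3 CPM. Dscam, a surface protein that can bind netrin, had KO libraries from 9.13 to 15.9 CPM and WT libraries from 1.76 to 7.31 CPM, again without overlap. DESeq2 also passed Pak2 and Dscam over both sexes, at adjusted p of 0.00573 and 0.0444, and edgeR did not, with an adjusted p of 1 for each. Of all tested genes, 0.936% had all 4 KO libraries above all 4 WT libraries, and of the 81 list genes 3 did, Ptk2 being the third. Mical1, an oxidase that acts behind plexins, was at 17.2 and 18.2 CPM in male KO libraries, against 0.381 and 2.97 CPM in male WT libraries, and it is in the authors' deposited table for males with a log2 fold change of 1.32 (adjusted p = 0.0409).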

How the data were processed

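Per the labels' protocols, polyadenylated RNA of GFP-sorted C-LTMRs was amplified with SMART-Seq v4 and sequenced from Nextera XT libraries without molecular identifiers, so the limit set by a count of 0 covers counting error only. Standard errors of fold changes were derived from the edgeR test over replicate libraries. Each is the absolute log2 fold change divided by the square root of its F statistic. With counts at 0 they can be very large, as for Epha4 in the difference between the sexes, at 3332. Per the file headers, the deposited values are whole read counts per gene from featureCounts 1.6.1. It used the exons of release 97 of the Ensembl GRCm38 annotation, ignored strand, and counted a read in every gene it touched. Of the members, 18 share exon bases with another gene, 4 of them over 10% (Ntn5, Efna3, Plxna1 and Efna4), and reads of such opposite-strand pairs cannot be told apart. The submitters' processing notes name DESeq2 1.14.1. No source used here names the aligner. For each sex the authors' deposited table gives log2 fold changes and their errors, a test score, and p-values before and after adjustment, per the file headers. It lists genes past 5% only.

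Counts were filtered with filterByExpr, leaving 22013 genes, and scaled with TMM (factors 0.9793 to 1.022). edgeR 4.0.16 (under R 4.3.3) and its quasi-likelihood test were fitted to 4 groups over all 8 libraries with 4 residual degrees of freedom, and for both sexes together with sex as a covariate. Tests were two-sided and adjusted by Benjamini-Hochberg over all tested genes at 0.05. Adjusted p-values in the text are from that fit unless DESeq2 1.42.0 or the authors are named. CPM uses the scaled library sizes. The test was checked on simulated data for the male comparison, with 50 genes changed at each size. It recovered 1 of 50 genes changed 2-fold, 17 changed 4-fold, 26 changed 8-fold and 21 changed 16-fold, with 2 false calls. A member that did not pass can therefore still differ.

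Symbols alone set which genes were members, but the gene set, the gene lists and the tests were chosen with earlier results of these data known. Named members were the 20 highest in CPM per kilobase, the highest of each family, and those with a mean of at least 5 CPM, or for the difference 1 CPM, whose KO and WT libraries did not overlap. Members in the authors' tables were named too. The split at a mean of 5 CPM was added after seeing the data. Replicate numbers did not pair the libraries. Alternatives were other size factors, no filter, a replicate block, DESeq2, 1 sex alone and leaving out each library.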

Additional observations from a re-analysis of the deposited data

Results flagged for a closer look

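Efna1, Slit1, Unc5a, Unc5b, Sema3f and Unc5c stood out because both male KO libraries lay on one side of both male WT libraries while both female KO libraries lay on the other side of both female WT libraries. The male minus female difference in log2 fold change was -0.36 for Efna1, -0.65 for Slit1, -0.67 for Unc5a and -0.84 for Unc5b. It was 6.68 for Sema3f and 4.07 for Unc5c. The difference was tested with edgeR for each gene and none passed, with adjusted p between 0.98 and 1, while 4.77% of all tested genes showed the same opposite order of libraries. The value for Unc5a was -0.22 without male KO replicate 1, and that for Efna1 lay between -0.57 and -0.19 when 1 library at a time was left out. For Sema3f the range was 5.72 to 10.33 and for Unc5c 3.18 to 6.89.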

How the results depend on the processing

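With edgeR, 0 members passed in each of the 4 comparisons under every alternative run, which were other size factors, no filter on low counts, the replicate block, libraries of 1 sex alone where that applied, and leaving out each of the 8 libraries. Only DESeq2 gave other counts, with 1 member in males, 2 in females and 3 for the difference between the sexes, and 0 over both sexes. The calls for Ephb1 and Sema3d involve groups with libraries at 0 counts. Sema3d was at 0 CPM in both female KO libraries and at 0 and 6.25 CPM in female WT libraries, so its call in females rests on 1 library. The correlation of deviations between libraries with the same replicate number lay between -0.102 and 0.109, so the numbers did not pair the libraries, and with the replicate block 0 members passed in each comparison. The number of members at 1 CPM or more in all libraries, 28, was 30 at most when 1 library was left out. Among the members named for libraries that did not overlap, the fold change kept its direction and call in 305 alternative values, and in 1 more the difference for Sema3f gained a call under DESeq2. The median log2 fold change of low members in females, -0.22, was 0.59 without female WT replicate 1, 0.46 without female WT replicate 2 and -1.21 without female KO replicate 2. Depth limits statements on members under about 0.0589 CPM.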

Other observations

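Some members were read only or mainly in a single library. Robo4, a receptor known from endothelium, had 0 counts in 7 libraries and was at 1.08 CPM in female WT replicate 2, the library in which the endothelial markers Cldn5 and Cdh5 were highest, at 16.1 and 4.53 CPM. Sema6a, a membrane semaphorin that binds A-type plexins, was at 25.5 CPM in male KO replicate 1 and at most 3.47 CPM elsewhere. Ephb1 was at 6.79 CPM in male KO replicate 1 and at most 0.475 CPM elsewhere, and Dcc was read in that library alone. The same library had the highest levels of the myelinated afferent markers Nefh, Spp1 and Calb1, at 1550, 79.9 and 36.7 CPM. Ntrk2 and Ntrk3, of the same list, were highest elsewhere. Ntrk2 was at 58.5 CPM in male WT replicate 1, against 56.3 CPM in male KO replicate 1. Ntrk3 was at 265 CPM in female KO replicate 1, against 254 CPM in male KO replicate 1. The part of other cells in these values was not tested.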
